A study of Homo sapiens with 42 samples.

Results

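RAG1, RAG2 and DNTT are the lymphocyte-restricted enzymes of V(D)J recombination, the cut-and-paste reaction that assembles immunoglobulin and T-cell receptor genes in developing B and T cells. They were chosen by name and are 3 of the 50648 genes counted in each of 7 human acute lymphoblastic leukaemia (ALL) cell lines. RAG1 and RAG2 form the recombinase that recognises recombination signal sequences and cuts the DNA beside them. RAG1 carries the catalytic site, and RAG2 is its obligate partner, which also binds methylated histone H3. DNTT, or terminal deoxynucleotidyl transferase (TdT), adds bases without a template at the cut ends before they are joined, which widens the diversity of the junctions. All are switched on in lymphoid precursors and off in mature lymphocytes, and TdT is a long-used marker of lymphoblastic leukaemia.

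The study asked how ALL cells respond to L-asparaginase, an enzyme drug that depletes asparagine, and to a lesser degree glutamine, from the medium. All are established lines: CEM and DND41 of T-cell leukaemia, and Nalm6, SUPB15, RS411, REH and 697 of B-precursor leukaemia. Each was grown in RPMI-1640 with fetal bovine serum and glutamine and was either left untreated or given L-asparaginase at 1 IU/ml for 4 h. Per the series' design, every line was run in 3 independent experiments, so that each of the 14 groups has 3 libraries of total RNA, 42 in all. Each line is 1 cell line, so a difference between lines has no replication over donors.

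Total counts per library ran from 15.07 to 77.14 M (mega counts; median 40.28 M), and the lowest count of the 3 genes in any library was 143, for DNTT in a treated DND41 library. All 7 B-lineage markers were at 1 CPM (count-per-million, scaled by TMM over all libraries) or more in the B-precursor lines, against 2 to 4 of 7 in the T lines. Their summed level in untreated libraries was nonetheless 648 to 1060 CPM in DND41, overlapping the 972 to 1160 CPM of 697, against 35.1 to 38.6 CPM in CEM. Of the 7 T-lineage markers, 6 or 7 reached 1 CPM in the T lines and 1 in the B-precursor lines. The erythroid markers were at or near 0 in every line, and of the myeloid, stromal and neuronal markers at most 3, 2 and 2 reached 1 CPM. The highest sums of these were 73.1 CPM (myeloid, untreated REH), 150 CPM (stromal, treated 697) and 230 CPM (neuronal, treated 697). The first untreated libraries of 5 lines (DND41, RS411, Nalm6, 697 and SUPB15) were singled out by earlier results of these data and had 3.35% to 7.23% of their counts on 5 small noncoding RNAs (RN7SK, RN7SL1, RPPH1, RMRP and SNORD3A) against 5.77% to 17.8% in the other 37 libraries. The gap was small in DND41, where a treated library had 5.77% against 5.63%, and in RS411, where another untreated one had 7.83% against 7.23%. The treated libraries SUPB15 C, REH A and RS411 B held 99, 19 and 3 genes at 1 CPM or more that had at most 3 counts in all other libraries of the line together. Where a call on the 3 genes changes without these libraries, both values are given.

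In the GENCODE 29 annotation of GRCh38, RAG1 lies on chromosome 11 at 36510709-36593156 on the forward strand and RAG2 at 36575574-36598279 on the reverse strand, tail to tail. Their exons share 588 bases, 7.52% of RAG1's exonic bases and 16.8% of RAG2's. C11orf74 on the forward strand shares another 321 exonic bases with RAG2. The strand setting of the counting is unknown, and reads in the shared bases cannot be assigned to one gene. DNTT lies on chromosome 10 at 96304396-96338564 on the forward strand, with no such partner among these genes. The files were made on hg19 and hold no coordinates, so these positions describe the genes and were not used for counting.

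The promoters of RAG2 and DNTT are shown because these genes were called lower in the most lines. Each sequence covers the 250 bases before the RefSeq start (GRCh38.p14), 5′ to 3′, with matches to the E-box CANNTG, the letters bound by E proteins such as TCF3, in capitals.
RAG2: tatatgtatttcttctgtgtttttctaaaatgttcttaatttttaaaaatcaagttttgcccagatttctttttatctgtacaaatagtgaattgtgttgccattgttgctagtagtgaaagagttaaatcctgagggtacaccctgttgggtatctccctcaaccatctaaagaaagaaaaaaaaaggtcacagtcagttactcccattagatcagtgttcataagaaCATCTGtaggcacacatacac
DNTT: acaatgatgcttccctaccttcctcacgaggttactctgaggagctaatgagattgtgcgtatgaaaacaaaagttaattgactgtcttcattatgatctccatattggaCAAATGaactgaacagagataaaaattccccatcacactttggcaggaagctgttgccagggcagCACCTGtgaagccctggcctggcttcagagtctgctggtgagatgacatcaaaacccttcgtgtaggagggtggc
The RAG2 sequence is chr11:36598237-36598486 on the reverse strand, with a GC content of 34% and 1 E-box, CATCTG, at -21 from the start. The DNTT sequence is chr10:96304184-96304433 on the forward strand, with a GC content of 46.4% and E-boxes at -140 (CAAATG) and -75 (CACCTG). The median GC content of 35116 RefSeq promoters was 58%, and 4.82% of them were at or below that of RAG2. An E-box is common: 61.8% of these promoters hold one. Neither sequence held TGATGNAAT on either strand (0.888% of promoters). These letters are 1 form of the C/EBP-ATF response element, through which amino acid starvation acts on many genes, and other forms were not searched. The forkhead letters GTAAACA (2.98%) and the Ikaros letters TGGGAA (20.8%) were also absent from both sequences on either strand. The third gene, RAG1, matched an upstream start at chr11:36510103-36510352, before the GENCODE model begins, and its sequence is not shown.

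All 7 untreated lines expressed all 3 genes, at levels that differed widely and in a different order for each gene. RAG1 untreated ranged from 1430 ± 269 CPM (SD, n = 3) in DND41 to 70.4 ± 19.5 CPM in 697, a ratio of 20.3. For RAG2 the highest line was REH, at 259 ± 64.1 CPM, and the lowest CEM, at 28.4 ± 4.5 CPM, a ratio of 9.12. DNTT spread furthest, from 1410 ± 199 CPM in SUPB15 to 28.6 ± 8.87 CPM in DND41, a ratio of 49.3. DND41 thus held the highest RAG1 level and the lowest DNTT level of the 7 lines. Untreated levels differed between lines for RAG1 (edgeR's quasi-likelihood F test over all 42 libraries, adjusted p = 2.5e-18), RAG2 (1.1e-15) and DNTT (7.5e-15), as they did for 86.7% of the 20983 genes tested. Line, culture and deposited table cannot be told apart in these differences.

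**Figure D1:**
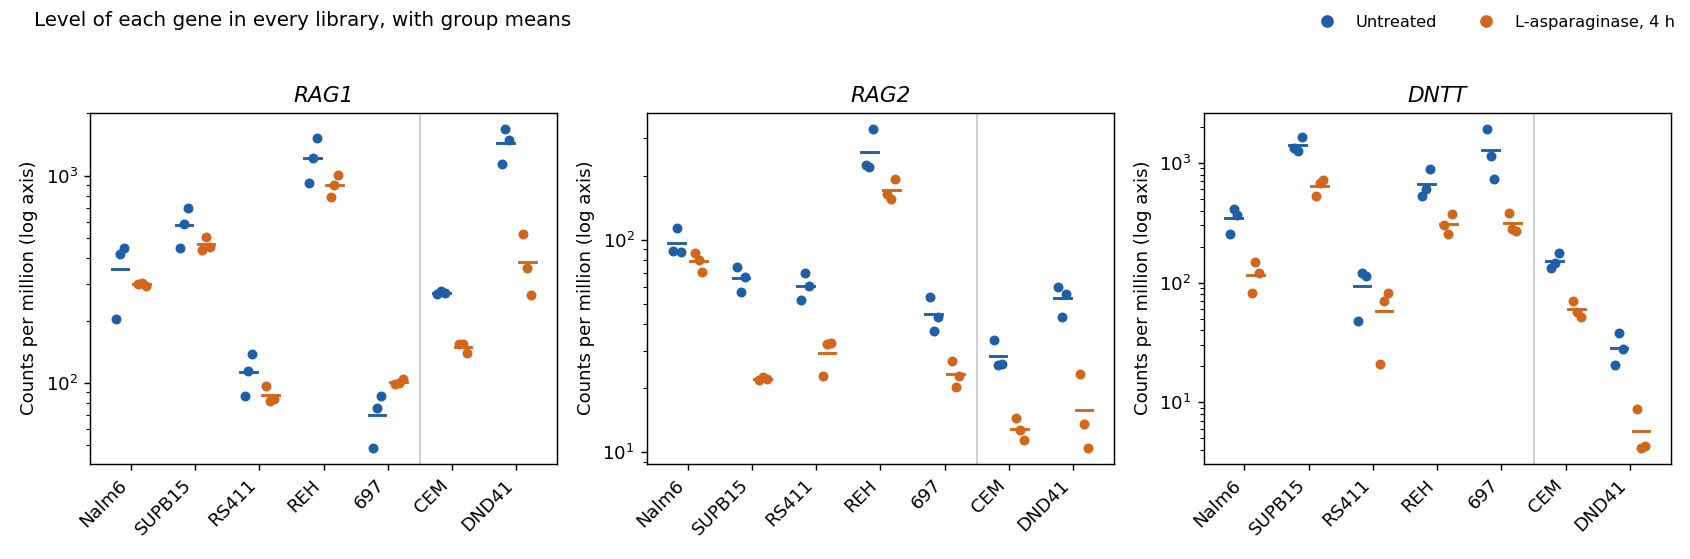
Level of RAG1, RAG2 and DNTT in each of the 42 libraries, in TMM-scaled counts-per-million on a log axis, by line. Points are libraries, untreated in blue and treated in orange, short lines are group means, and the grey line parts the B-precursor lines from the T lines. RAG1 was highest in untreated DND41 and REH, while all untreated DNTT libraries of DND41 lay below those of every other line.

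RAG1, the catalytic subunit, had the 3 untreated levels of 1140, 1680 and 1480 CPM in DND41 and 921, 1220 and 1510 CPM in REH. These libraries overlap, and the difference of 0.24 ± 0.23 (log2 ± SE) did not pass the test (adjusted p = 0.45). SUPB15 followed at 448, 585 and 698 CPM, below every REH library (log2 difference 1.08 ± 0.23, adjusted p = 0.00024). Nalm6 had 204, 417 and 445 CPM, and CEM 269, 277 and 271 CPM, the tightest untreated group. Nalm6 lay below SUPB15 (0.70 ± 0.23, adjusted p = 0.015), but the p became 0.16 without its first library, 0.12 without untreated SUPB15 C, and 0.058 in a model of the 21 untreated libraries alone. Without all 5 singled-out libraries the difference still passed (0.54 ± 0.19, adjusted p = 0.022). Between Nalm6 and CEM the difference of 0.38 ± 0.23 did not pass (adjusted p = 0.18), and without the first untreated Nalm6 library it did (0.66 ± 0.23, adjusted p = 0.016). Far below CEM came RS411, at 86.5, 114 and 138 CPM (1.27 ± 0.24, adjusted p = 2.2e-05). At the bottom 697 had 48.8, 75.7 and 86.7 CPM, overlapping RS411 by a small margin (0.68 ± 0.23, adjusted p = 0.016). The p was 0.11 without the first untreated 697 library and 0.12 without untreated RS411 C. It was 0.0079 without all 5 singled-out libraries (0.63 ± 0.19).

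RAG2, the regulatory partner, stood out in REH, at 225, 219 and 333 CPM, above every library of the other lines. Its distance to the next line, Nalm6 (88.4, 113 and 87.3 CPM), was 1.43 ± 0.21 on the log2 scale (adjusted p = 5e-07). Nalm6 in turn exceeded SUPB15 at 74.1, 56.6 and 66.6 CPM (0.55 ± 0.20, adjusted p = 0.03), which rose to 0.13 without untreated Nalm6 B and 0.11 without untreated SUPB15 B. The next lines in order were RS411 at 52.1, 70.1 and 60.3 CPM, DND41 at 60.1, 43.2 and 55.8 CPM, and 697 at 53.7, 37.1 and 43.1 CPM. From SUPB15 down to 697 no neighbour differed beyond its spread, with log2 differences of 0.11, 0.20 and 0.25 (adjusted p = 0.72, 0.44 and 0.33). CEM was lowest, at 33.6, 25.6 and 26 CPM (0.65 ± 0.21 below 697, adjusted p = 0.0074).

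DNTT, the template-independent polymerase, had 1330, 1260 and 1640 CPM in untreated SUPB15 and the widest spread of any group in 697, at 1930, 1150 and 741 CPM. The difference between these 2 lines did not pass the test (0.15 ± 0.36, adjusted p = 0.80). REH (529, 602 and 882 CPM) lay 0.92 ± 0.36 below 697 (adjusted p = 0.035), and Nalm6 (257, 415 and 368 CPM) 0.95 ± 0.37 below REH (adjusted p = 0.035). Both steps depended on single libraries: the first was 0.50 without the first untreated 697 library (adjusted p = 0.29), and the second 0.70 without untreated REH C (adjusted p = 0.18) and 0.78 without the first untreated Nalm6 library (0.15), or 0.76 without all 5 singled-out libraries (0.065). CEM followed at 132, 145 and 178 CPM, below every Nalm6 library (1.19 ± 0.37, adjusted p = 0.0068). RS411 had 47.6, 121 and 114 CPM, and its difference from CEM did not pass (0.68 ± 0.36, adjusted p = 0.12). DND41 was last, at 20.3, 37.9 and 27.6 CPM, with no library as high as the lowest of RS411 (1.72 ± 0.37, adjusted p = 0.00019).

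Of the 21 pairs of lines, 19 differed in RAG1, 16 in RAG2 and 19 in DNTT, against 46.4% of genes called over all pairs (35.2% to 55.8% in single pairs). The pairs that did not pass were DND41 and REH, and Nalm6 and CEM, for RAG1. For DNTT they were SUPB15 and 697, and CEM and RS411. For RAG2 they were the pairs among SUPB15, RS411, DND41 and 697, apart from SUPB15 against 697. Over the 7 lines the untreated log2 levels of RAG1 and RAG2 had a Pearson correlation of 0.48, those of RAG1 and DNTT -0.23, and those of RAG2 and DNTT 0.30. These describe 7 points that share each library's depth and scaling, and RAG1 and RAG2 also share exonic bases.

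Levels can be compared between the genes only per length, here in CPM per kilobase of the longest protein-coding GENCODE transcript (6564 bases for RAG1, 2818 for RAG2 and 1972 for DNTT). On this scale DNTT was the most abundant of the genes in 6 untreated lines, with 715 CPM per kilobase in SUPB15, 644 in 697, 340 in REH, 176 in Nalm6, 76.6 in CEM and 47.8 in RS411. In DND41 the order was different, with RAG1 at 218, RAG2 at 18.8 and DNTT at 14.5 CPM per kilobase. RAG1 and RAG2 stood closest in RS411 (17.2 and 21.6 CPM per kilobase) and 697 (10.7 and 15.9), the lines where RAG2 was the higher of the pair. RAG1 exceeded RAG2 in the other lines, as in REH (186 against 91.9) and SUPB15 (87.9 against 23.3).

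L-asparaginase lowered DNTT in 6 of 7 lines, RAG2 in 5 and RAG1 in 2, each at an adjusted p under 0.05 in the line's own edgeR fit. A call in at least 6 lines was reached by 0.785% of the 11722 genes tested in every line, a call in at least 5 by 2.46% and one in at least 2 by 19.1%. No gene of the 3 was called higher in any line. Both RAG2 and DNTT had a log2 fold change below 0 in all 7 lines, which held for 11.9% of genes, and RAG1 in 6. Every treated RAG2 library was below every untreated one in all 7 lines (1.09% of genes). For DNTT this held in 6 lines (3.79% of genes reached 6) and for RAG1 in 2 (36.3% reached 2). In RNA from whole cultures, fewer cells that express a gene and less of its RNA per cell cannot be told apart.

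**Figure D2:**
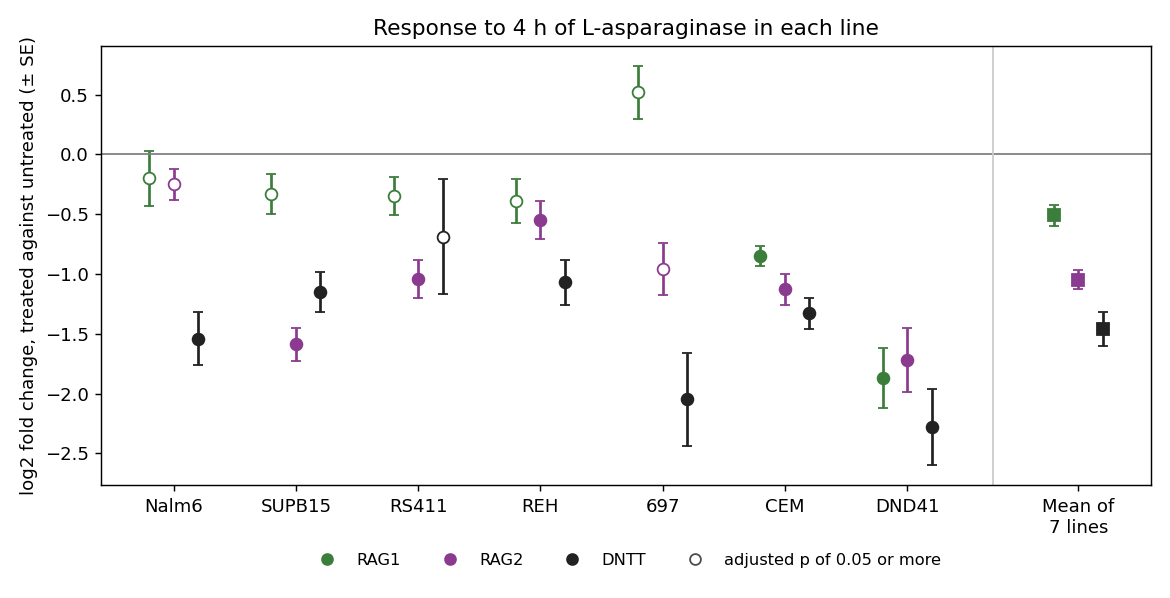
Log2 fold change, treated against untreated, of RAG1 (green), RAG2 (purple) and DNTT (black) in each line and as the mean of the 7 lines (squares), with bars of 1 SE. The SE of the mean rests on the spread between libraries within groups, not between lines. Open symbols have an adjusted p of 0.05 or more in edgeR's quasi-likelihood test. All points except RAG1 in 697 (0.52 ± 0.22) lie below 0.

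Averaged over the 7 lines in the model of all 42 libraries, DNTT fell 2.75-fold (mean log2 fold change -1.46 ± 0.14, edgeR adjusted p = 1.3e-10). RAG2 fell 2.07-fold (-1.05 ± 0.079, adjusted p = 3.1e-13) and RAG1 1.43-fold (-0.51 ± 0.088, adjusted p = 1e-05). In this model the RAG1 responses of single lines ran from 0.52 in 697 to -1.9 in DND41. The SE and p of the average rest on the spread between libraries within groups, not on the spread between lines. In this average 19.6% of the 20983 genes tested were called lower and 17.8% higher, so a lower call alone sets no gene apart. A lower mean log2 fold change than that of DNTT was found for 0.486% of genes, than that of RAG2 for 1.90%, and than that of RAG1 for 12.2%. The responses differed between lines for RAG1 (range of 2.43 log2 units, interaction adjusted p = 0.00011) and RAG2 (1.47, adjusted p = 0.0026), as for 19.4% of genes. For DNTT the range was 1.61 and the test did not pass (adjusted p = 0.17). It did pass with the replicate letter or number as a block (0.025), without a filter on low counts (0.012) and without treated RS411 A (0.03). The block pairs libraries in all 7 lines, also in Nalm6 and 697, where the pairs did not all deviate together. DNTT in DND41 was at -1 ± 0.41 against the mean of the other lines (adjusted p = 0.17), and this passed without the 5 first untreated libraries (-1.20 ± 0.37, adjusted p = 0.03), with the block (0.026) and without the filter (0.039).

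DNTT fell most in DND41. Its untreated libraries had 20.3, 37.9 and 27.6 CPM and its treated ones 8.8, 4.16 and 4.25 CPM, with a wide gap between the groups. The fall was 4.85-fold (log2 -2.28 ± 0.32, edgeR adjusted p = 0.0015), and only 0.261% of the 14951 genes tested in DND41 had a lower log2 fold change, where 11.8% were called lower. In 697 DNTT went from 1930, 1150 and 741 CPM to 384, 281 and 270 CPM. The groups did not overlap although the untreated libraries varied more than 2-fold among themselves, and the 4.15-fold fall (-2.05 ± 0.39, adjusted p = 0.046) lay just under the threshold, in a line where 0.849% of genes were called lower. Leaving out single 697 libraries moved its adjusted p over the threshold in 5 of 6 cases, the highest being 0.28 without treated replicate 2, while the log2 fold change stayed between -2.34 and -1.59. The sixth case, without the first untreated library, gave -1.59 ± 0.20 (adjusted p = 9.3e-05), and the line then had 3664 changed genes in place of 367.

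Nalm6 had untreated DNTT levels of 257, 415 and 368 CPM and treated ones of 81.1, 148 and 119 CPM. This 2.91-fold fall (-1.54 ± 0.22, adjusted p = 0.0013) compares with 11.8% of genes called lower in that line. CEM went from 132, 145 and 178 CPM to 70.7, 56.7 and 51.7 CPM, a 2.52-fold fall (-1.33 ± 0.13, adjusted p = 2.4e-05). In CEM depth differed by treatment, at 22.68 to 31.6 M untreated and 50.81 to 71.52 M treated, and 17.7% of genes were called lower. SUPB15, with the highest DNTT, dropped from 1330, 1260 and 1640 CPM to 534, 678 and 719 CPM, which is 2.22-fold (-1.15 ± 0.17, adjusted p = 0.0021, 13.2% of genes called lower). REH was similar in size at 2.1-fold (-1.07 ± 0.19, adjusted p = 0.0027, 13.3% of genes called lower), from 529, 602 and 882 CPM to 300, 255 and 375 CPM. In all 4 lines every treated library was below every untreated one.

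RS411 was the line without a DNTT call. Its untreated levels were 47.6, 121 and 114 CPM and its treated ones 21, 70.5 and 81.5 CPM, so the groups overlapped, with library A low in both. The difference of -0.69 ± 0.48 did not pass (adjusted p = 0.38), and 5.19% of genes were called lower in RS411 (2087 changed in both directions, 4517 without its first untreated library and 435 without treated RS411 B). Within each letter the treated library was the lower one. With the letter as a block, which the correlations of RS411 libraries just allowed (lowest 0.10 within a letter, highest 0.24 between letters), the change was -0.80 ± 0.15 (adjusted p = 0.012).

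RAG2 fell most in DND41 and SUPB15. In DND41 it went from 60.1, 43.2 and 55.8 CPM to 23.2, 13.5 and 10.5 CPM, a 3.3-fold fall (-1.72 ± 0.27, edgeR adjusted p = 0.0024). SUPB15 went from 74.1, 56.6 and 66.6 CPM to 21.8, 22.7 and 22 CPM, 3.01-fold lower (-1.59 ± 0.14, adjusted p = 0.00032). The treated SUPB15 libraries lay within about 1 CPM of each other. CEM fell 2.19-fold, from 33.6, 25.6 and 26 CPM to 14.5, 12.7 and 11.4 CPM (-1.13 ± 0.13, adjusted p = 6.9e-05), and RS411 2.06-fold, from 52.1, 70.1 and 60.3 CPM to 22.9, 32.2 and 32.8 CPM (-1.04 ± 0.16, adjusted p = 0.0072). Neither of these showed overlap.

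REH, with the most RAG2, fell less. Its levels of 225, 219 and 333 CPM became 165, 155 and 193 CPM, 1.47-fold lower (-0.55 ± 0.16, adjusted p = 0.024). The adjusted p rose to 0.064 without treated REH A, to 0.094 without treated REH B and to 0.073 without untreated REH C. In 697 the change from 53.7, 37.1 and 43.1 CPM to 26.8, 20.2 and 22.8 CPM did not pass in the line's own fit (-0.96 ± 0.22, adjusted p = 0.073), though the groups were apart. It did pass without the first untreated library (-0.78 ± 0.14, adjusted p = 0.0017), with DESeq2 (0.0043) and in the model of all libraries (0.0013). Calls in 697 were more common over all genes in these fits, with 3664, 1659 and 3889 changed genes in place of 367. Nalm6 had 88.4, 113 and 87.3 CPM against 86.3, 80.2 and 70.7 CPM, groups that came within about 1 CPM of each other, with a difference of -0.25 ± 0.13 (adjusted p = 0.22).

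The RAG2 response of Nalm6 was weaker than the mean of the other lines by 0.89 ± 0.22 on the log2 scale (edgeR adjusted p = 0.019, a contrast called for 2.51% of genes), with -0.28 in Nalm6 against -1.18 elsewhere in the joint model. Without single Nalm6 libraries the adjusted p rose to at most 0.083. That of DND41 was stronger by 0.82 (-0.82 ± 0.22, adjusted p = 0.022, 5.95% of genes called), and the highest adjusted p, 0.18, came without treated DND41 C. The other 5 lines did not pass this test for RAG2, though with the replicate block SUPB15 (-0.59 ± 0.16, adjusted p = 0.03) and REH (0.56 ± 0.15, adjusted p = 0.047) did.

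RAG1 changed least on average and differed most between lines. It fell strongly in DND41, from 1140, 1680 and 1480 CPM to 523, 360 and 266 CPM, a 3.65-fold fall (-1.87 ± 0.25, edgeR adjusted p = 0.0012). DND41 went from the highest RAG1 level of the lines to one below treated REH (785, 903 and 1010 CPM) and SUPB15 (439, 505 and 453 CPM) in mean. CEM fell 1.8-fold, from 269, 277 and 271 CPM to 155, 155 and 139 CPM (-0.85 ± 0.083, adjusted p = 2.2e-05). These were the T lines, and in both every treated library was below every untreated one. DND41 differed from the mean of the other lines (-1.62 ± 0.25, adjusted p = 7.6e-05), while for CEM that test did not pass (-0.40 ± 0.25, adjusted p = 0.69).

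In 4 B-precursor lines RAG1 had small negative values that did not pass the test. Nalm6 went from 204, 417 and 445 CPM to 301, 304 and 294 CPM (-0.20 ± 0.23, adjusted p = 0.57), and SUPB15 from 448, 585 and 698 CPM to 439, 505 and 453 CPM (-0.33 ± 0.17, adjusted p = 0.18). RS411 went from 86.5, 114 and 138 CPM to 97.1, 81.7 and 83.8 CPM (-0.35 ± 0.16, adjusted p = 0.20). REH went from 921, 1220 and 1510 CPM to 785, 903 and 1010 CPM (-0.39 ± 0.18, adjusted p = 0.13). In each of these lines the groups overlapped, and the untreated libraries had the larger SD.

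The first untreated library had the lowest RAG1 of its group in all 7 lines, at 204 CPM in Nalm6, 448 in SUPB15, 86.5 in RS411, 48.8 in 697, 1140 in DND41, 921 in REH and 269 in CEM. Without it RAG1 was called lower in Nalm6 (-0.47 ± 0.11, adjusted p = 0.015), SUPB15 (-0.43 ± 0.11, adjusted p = 0.013) and RS411 (-0.49 ± 0.12, adjusted p = 0.016). Leaving out the lowest untreated value makes a fall larger by itself. Calls also became more common over all genes, with changed genes going from 3110 to 3743 in Nalm6, 3950 to 6328 in SUPB15 and 2087 to 4517 in RS411. Without the 5 singled-out libraries the mean over the lines was -0.63 ± 0.064 (adjusted p = 3.9e-10). REH also passed without its first untreated library (-0.55 ± 0.17, adjusted p = 0.029), and with the replicate block (-0.38 ± 0.097, adjusted p = 0.0096). Changed genes in REH went from 4120 to 4560 and 6683 in these fits.

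RAG1 in 697 went the other way. Untreated libraries had 48.8, 75.7 and 86.7 CPM and treated ones 99.4, 100 and 104 CPM, so that every treated library was above every untreated one, as for 17.4% of genes in this line. The line's own fit did not call it (0.52 ± 0.22, adjusted p = 0.24), and no alternative did, with adjusted p-values between 0.06 and 0.55. Its difference from the mean of the other lines passed (1.21 ± 0.25, adjusted p = 0.0017, 9.11% of genes called), with 0.52 in 697 against -0.69 elsewhere. Without the 5 first untreated libraries that difference was 1.13 ± 0.20 (adjusted p = 0.00015). In the same 697 libraries DNTT fell 4.15-fold and RAG2 had a value of -0.96.

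The balance of the recombinase subunits was read as RAG1 counts per RAG2 count, a ratio within a library that does not depend on its scaling. Reads in the 588 exonic bases that RAG1 and RAG2 share cannot be assigned, and their part in either count was not tested. It ranged from 0.907 in the first untreated 697 library to 38.8 in untreated DND41 B. In 3 lines every treated library had a higher ratio than every untreated one. SUPB15 went from 6.04, 10.3 and 10.5 to 20.2, 22.3 and 20.6, a 2.42-fold higher geometric mean. In 697 the ratios were 0.907, 2.04 and 2.01 untreated and 3.7, 4.98 and 4.56 treated (2.83-fold), and in RS411 1.66, 1.63 and 2.29 untreated and 4.25, 2.54 and 2.56 treated (1.65-fold). In SUPB15 and 697 the first untreated library had the lowest ratio of its group, so these folds rest partly on it. The ratio was not tested line by line: an exact two-sided permutation test of 3 libraries against 3 goes no lower than 0.1. How often the ratios of other gene pairs separate in this way was not computed.

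**Figure D3:**
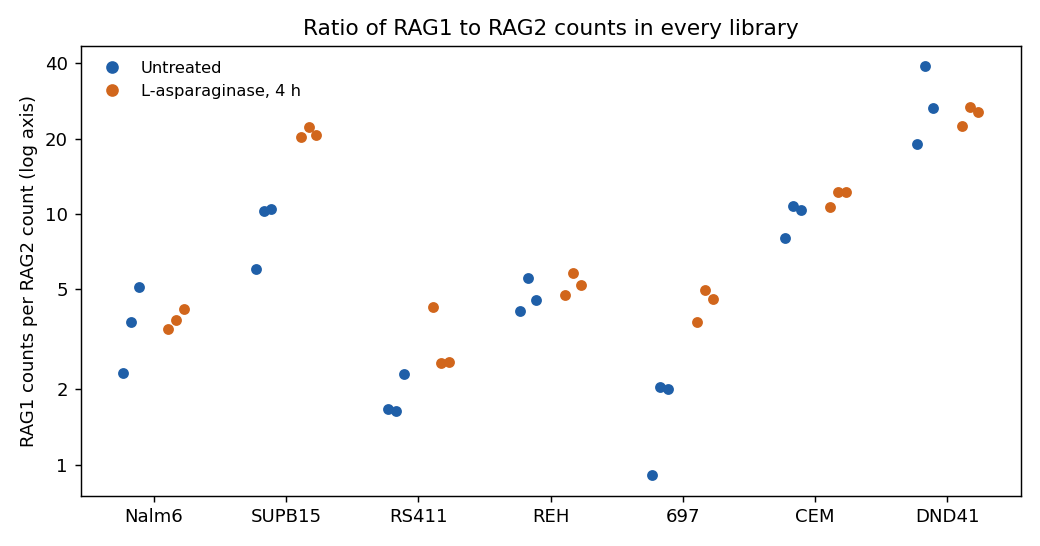
RAG1 counts per RAG2 count in each library, on a log axis, by line and treatment (untreated blue, treated orange). SUPB15, RS411 and 697 show no overlap between treated and untreated libraries, and the other lines do.

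The treated and untreated libraries of the other 4 lines overlapped. Their treated and untreated geometric means differed by 1.08-fold in Nalm6, 1.12-fold in REH, 1.21-fold in CEM and 0.921-fold in DND41. Of these, REH, CEM and DND41 had letters that pair libraries. Every same-letter pair was higher in the treated library in REH (4.09 and 4.75, 5.56 and 5.81, 4.54 and 5.21) and in CEM (8.02 and 10.7, 10.8 and 12.2, 10.4 and 12.2), against 1 of 3 in DND41. The share of other gene pairs with such a result was not computed. In DND41, where RAG1 and RAG2 both fell more than 3-fold, the ratio was 19, 38.8 and 26.5 untreated and 22.5, 26.7 and 25.4 treated. Over the 7 lines the responses of RAG1 and RAG2 had a Pearson correlation of 0.55, those of RAG1 and DNTT 0.30, and those of RAG2 and DNTT 0.24, as a description of 7 points that share libraries. RAG1 and RAG2 also share exonic bases.

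Of the neighbours of the RAG locus, TRAF6, a signalling ubiquitin ligase that shares no exonic base with either gene, had a mean response of -0.04 ± 0.053 (edgeR adjusted p = 0.65) and no call in any line. C11orf74 was lower in the mean (-0.86 ± 0.21, adjusted p = 0.00098). This gene, whose exons overlap those of RAG2, passed the low-count filter in 3 lines and was called lower in 1, SUPB15, from 4.68 ± 0.225 to 2.86 ± 0.715 CPM (-0.73 ± 0.22, adjusted p = 0.036). Its share of reads from RAG2 was not tested.

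The lists of other V(D)J genes are set beside the 17.8% of all genes called higher and 19.6% called lower in the mean of the lines. List genes counted in the mean had to be tested in at least 5 lines and to have counts in every group. The genes behind these shares did not have to meet this rule, and the shares among genes that do were not computed. Of 18 end-joining and damage-signalling genes, 17 could be tested in the mean of the lines, with 6 called higher and 5 lower. Their median was -0.07, against -0.015 over all genes. NBN (0.47 ± 0.044, adjusted p = 5.9e-11) rose and MRE11A (-0.43 ± 0.047, adjusted p = 2.4e-09) fell, although both proteins belong to 1 complex that senses breaks. ATM, the kinase that complex recruits, fell (-0.48 ± 0.041, adjusted p = 9.1e-12) and was called lower in 5 lines. POLL, a polymerase of the same family as TdT that fills gaps at joined ends, rose in the mean (0.58 ± 0.20, adjusted p = 0.02) with no call in any of the 5 lines where it was tested. The joining genes were mixed as well. LIG4, the ligase that seals the ends, fell (-0.37 ± 0.064, adjusted p = 1e-05), as did its partner XRCC4 (-0.33 ± 0.084, adjusted p = 0.0016). LIG4 was above 0 in RS411 (0.15 ± 0.21) and DND41 (0.31 ± 0.15), without a call. DCLRE1C (0.19 ± 0.063, adjusted p = 0.016), POLM (0.38 ± 0.083, adjusted p = 0.00027) and C9orf142 (0.40 ± 0.14, adjusted p = 0.027) rose. XRCC5, XRCC6 and PRKDC did not pass.

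Among 9 partners and neighbours of the RAG and TdT proteins, 8 could be tested, with 2 higher and 4 lower (17.8% and 19.6% over all genes) and a median of -0.09. DNTTIP2, which binds TdT, fell (-0.43 ± 0.068, adjusted p = 3.9e-06) while DNTTIP1, another TdT-binding protein, rose (0.32 ± 0.05, adjusted p = 2.9e-06). KPNA1, an importin that binds RAG1, rose (0.33 ± 0.045, adjusted p = 1.7e-07). HMGB2, a DNA-bending cofactor of RAG cutting, fell by a smaller amount (-0.22 ± 0.086, adjusted p = 0.043). Without the 5 first untreated libraries 2 of this group were lower.

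Transcription factors with known roles at the RAG or DNTT genes were also mixed: of 21, 17 could be tested, 6 were higher and 5 lower (17.8% and 19.6% over all genes), and the median was 0.06. BCL11A (0.66 ± 0.092, adjusted p = 2.8e-07) and MYB (0.50 ± 0.086, adjusted p = 1e-05) rose, and LEF1 (-0.65 ± 0.092, adjusted p = 3.8e-07) and TCF3 (-0.45 ± 0.064, adjusted p = 4.4e-07) fell. TCF3, which encodes E proteins, was called lower in 2 of the 7 lines by edgeR. These were Nalm6 (-0.94 ± 0.17, adjusted p = 0.0043) and REH (-0.37 ± 0.12, adjusted p = 0.045). FOXO1, an activator of RAG transcription in B precursors, had a mean response of 0.03 ± 0.096 (adjusted p = 1) and was called in 1 line, higher in REH (0.50 ± 0.13, adjusted p = 0.016). In REH RAG1 was at -0.39 and RAG2 at -0.55. A link between these factors and the RAG or DNTT genes was not tested.

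Of 10 genes that mark lymphoid precursors, 4 could be tested in the mean, and 3 were lower (19.6% over all genes) and none higher, with a median of -0.44. IGLL1, a surrogate light chain of the pre-B-cell receptor, fell (-0.55 ± 0.14, adjusted p = 0.0022), as did SOX4 (-0.53 ± 0.051, adjusted p = 1e-10) and ARPP21 (-0.35 ± 0.085, adjusted p = 0.00096). They were called lower in 2, 3 and 2 lines, and all 3 mean values are smaller in size than those of RAG2 and DNTT. In single lines the same 10 genes gave 5 lower and 1 higher of 8 tested in Nalm6 (11.8% of genes called lower), 5 and 1 of 9 in CEM (17.7%), 4 and 0 of 7 in SUPB15 (13.2%) and 3 and 0 of 5 in REH (13.3%). RS411 gave 0 lower and 0 higher of 7 (5.19%), 697 gave 0 and 1 of 8 (0.849%), and DND41 0 and 1 of 5 (11.8%), the higher one being DTX1 (1.01 ± 0.22, adjusted p = 0.0086).

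**Figure D4:**
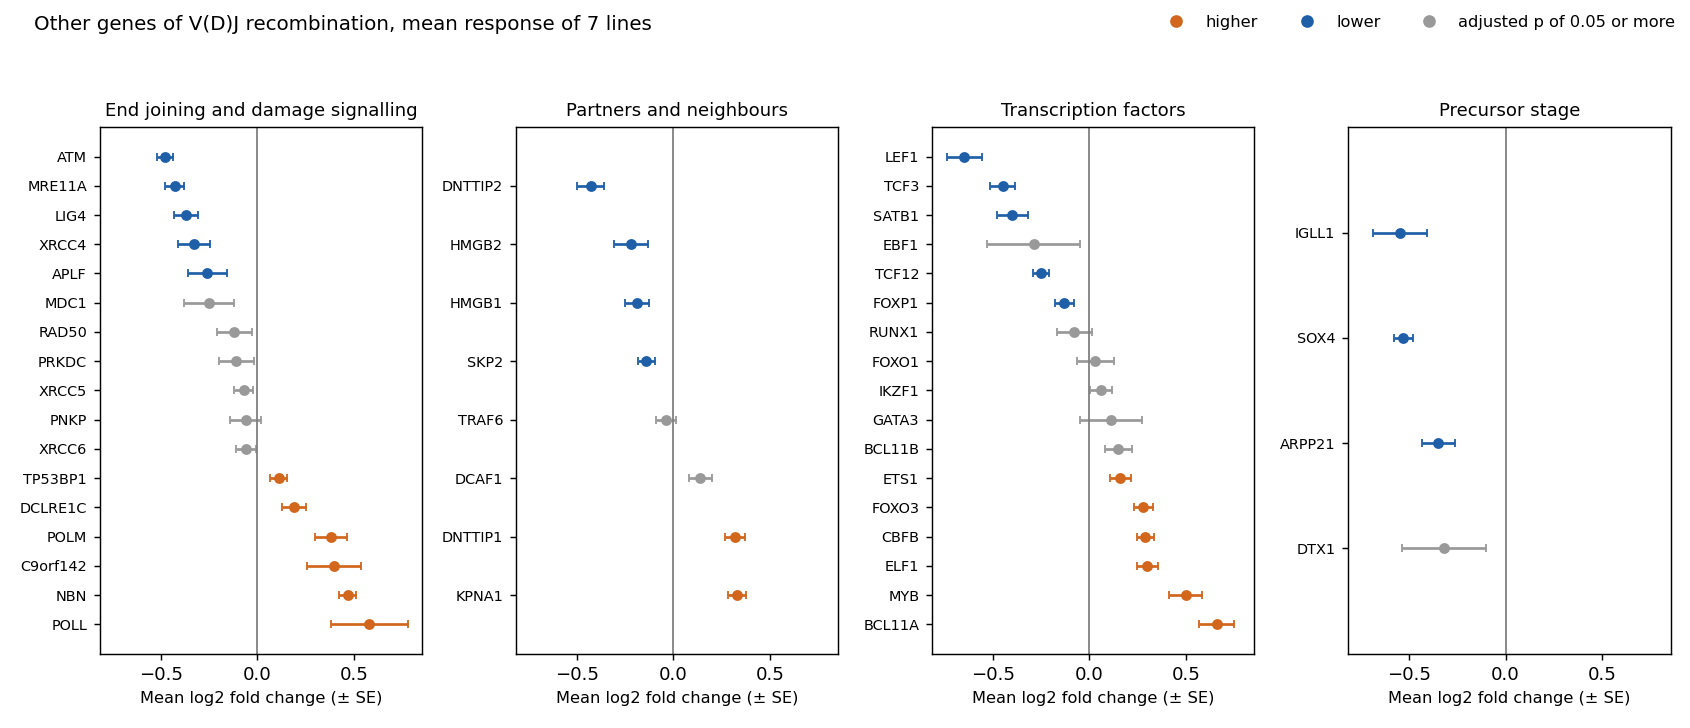
Mean log2 fold change over the 7 lines, with bars of 1 SE, of the other V(D)J genes that could be tested in at least 5 lines, in 4 lists. Orange genes were called higher, blue genes lower and grey genes did not pass (edgeR adjusted p of 0.05 or more). Values lie on both sides of 0 in the first 3 lists and below 0 in the last.

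By likeness over the 14 group means, among 12525 genes with a highest group mean of at least 5 CPM, the genes with a pattern close to that of RAG1 included FBXO9 (Pearson r = 0.889) and UFD1L (0.884). PIM2 (0.901), PRPS1 (0.867) and BUB3 (0.864) were closest to RAG2. For DNTT they were PDE4A (0.959), LHFPL2 (0.956) and USP6NL (0.945). All share the same libraries and the wide differences in level between lines, and the values carry no p.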

How the data were processed

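Total RNA of 42 libraries was sequenced. The authors deposited 1 table per line with raw read counts for each gene symbol, not normalized. The build is hg19 per the submitters' processing notes. Aligner, counting tool and strand setting: not given in the sources used here. Each column was assigned by the line and treatment in its name, and its letter or number names the replicate. The 7 tables were joined on symbol.

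Each line was fitted on its own 6 libraries, and all 42 in 1 joint model, with edgeR 4.0.16 in R 4.3.3 (TMM, filterByExpr with a minimum count of 10, glmQLFit and glmQLFTest). P-values were adjusted by Benjamini-Hochberg over all genes tested, with calls at an adjusted p under 0.05. Fold changes of a line come from its own fit, and means, interactions and level differences from the joint model. SE is the size of the log2 fold change divided by the root of F. For means over lines, SE and p rest on the spread between libraries within groups, not between lines. DESeq2 1.42.0 was an alternative. The genes, the 4 pathway lists, the marker lists and the libraries left out were chosen with earlier results of these data known. Named list genes are up to 4 called members per list with the largest mean change, tested in at least 5 lines. Some further joining genes and FOXO1 are named outside this rule. Genes of like pattern are the 3 with the highest r for each gene, of which 1 is not reported here.

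Counts of replicates differed beyond sampling noise (lowest chi-square per degree of freedom 15), so none was a copy. Same-letter libraries deviated together in SUPB15 (lowest r 0.15), RS411 (0.10), REH (0.33), CEM (0.17) and DND41 (0.35), where every pair passed 0.1, but not in Nalm6 (0.05) or 697 (-0.07). The highest r between different letters was 0.24 in RS411, above its lowest same-letter r, and 0.28 in DND41. The pairing rests on the column names and these correlations. On simulated data, the line fits found 89.7% (697) to 100% (DND41) of 4-fold changes, and of 2-fold changes 12.2% in 697 and 58.9% to 86.3% in the others. Of the calls, 9.17% were false in 697, 6.32% in SUPB15 and 5.79% in REH, and 3.83% to 4.84% in the other lines. The simulation gave all genes of a line a common dispersion and drew libraries independently, without pairs or deviating libraries. Its rates therefore need not hold for the real libraries.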

Additional observations from a re-analysis of the deposited data

Results flagged for a closer look

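The response of RAG1 to L-asparaginase differed between lines by up to 2.43 on the log2 scale, from 0.52 in 697 to -1.90 in DND41, and the test of equal responses over the 7 lines passed (edgeR adjusted p = 0.00011). By the same test the responses of RAG2 differed, with a range of 1.47 (adjusted p = 0.0026). Against the mean of the other lines, RAG1 differed by 1.21 in 697 and by -1.62 in DND41, and RAG2 by 0.89 in Nalm6 and by -0.82 in DND41. In DND41 both RAG genes moved further down than elsewhere, whereas in 697 and Nalm6 only 1 of the pair passed this test: RAG2 in 697 differed by 0.12 (adjusted p = 0.95) and RAG1 in Nalm6 by 0.31 (adjusted p = 0.75). No group of 4 or more libraries was present, so single outlying libraries were not tested.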

How the results depend on the processing

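Calls of RAG1 in Nalm6, SUPB15, RS411 and REH, of RAG2 in REH and 697 and of DNTT in 697 and RS411 changed under some alternatives, and the other member responses kept their call under every alternative run (scaling, filter, DESeq2, joint model, replicate block and left-out libraries). RAG1 in Nalm6, SUPB15, RS411 and REH and RAG2 in 697 passed under the alternatives named in the report, and the cause was not tested. RAG2 in REH was -0.54 without treated REH A. With the replicate block, which pairs libraries by letter or number, DNTT was -0.80 in RS411 (adjusted p = 0.012) and -1.95 in 697 (0.071), RAG1 was -0.38 in REH (0.0096), the range of DNTT responses was 1.55 (0.025), and the block changed no other member call in a line or in the mean. RAG2 in 697 was -0.98 with DESeq2 and -0.94 in the joint model. The DNTT range was 1.62 with no filter on low counts. Leaving out 1 library at a time gave RAG1 values of -0.55 to -0.22 in REH, -0.47 to -0.02 in Nalm6, -0.49 to -0.18 in RS411 and -0.43 to -0.17 in SUPB15, RAG2 values of -0.67 to -0.35 in REH and -1.08 to -0.78 in 697, DNTT values of -2.34 to -1.59 in 697, and DNTT ranges of 1.28 to 2.06.

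Values near 0 changed sign with no call on either side: against the mean of the other lines, single left-out libraries gave -0.36 to 0.06 for DNTT in Nalm6, -0.10 to 0.14 for RAG2 in RS411 (0.01 with DESeq2 size factors), -0.08 to 0.28 for RAG1 in REH and -0.18 to 0.05 for RAG2 in CEM. Untreated DNTT in SUPB15 minus 697 ran from -0.12 to 0.55, and untreated RAG2 in SUPB15 minus RS411 was -0.11 without the 5 first untreated libraries.

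The number of changed genes per line, the base of the percentages called, moved more than the members did. Nalm6 had 3110 changed genes (1683 to 3743 with 1 library left out). SUPB15 had 3950 (1716 to 6328), with 6328 without the first untreated library and 2180 without treated SUPB15 C. RS411 had 2087 (272 to 4517), with 4517 without the first untreated library and 435 without treated RS411 B. REH had 4120 (2429 to 4560) and 6683 with the replicate block, and DND41 4023 (1848 to 5311). CEM had 5903, and 2667 in the joint model. In 697 there were 367 (5 to 3664), with 1659 by DESeq2, 3889 in the joint model, 16 with the replicate block and 3664 without the first untreated library. Of the partners and neighbours, 4 were lower in the mean and 2 without the 5 first untreated libraries. The lowest count of a member in any library was 143.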
